A study of Mus musculus with 6 samples.

Results

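The metalloproteinases and their tissue inhibitors were examined in bladder tumours of mice given an anti-PD-1 antibody. Members were all genes of the expression table whose symbol named an ADAM, an ADAMTS, an ADAMTS-like (ADAMTSL) protein, a matrix metalloproteinase (MMP) or a tissue inhibitor of metalloproteinases (TIMP). This rule found 85 of 22063 genes: 34 ADAM, 19 ADAMTS, 5 ADAMTSL, 23 MMP and 4 TIMP genes. Bulk RNA was sequenced from 6 tumours of female mice with an intact immune system in which bladder cancer arose spontaneously. All had received the anti-PD-1 antibody once tumours had formed. The submitters classed 3 tumours as non-responsive (replicates 1, 2 and 3) and 3 as responsive (replicates 1, 2 and 3). The strain, the age of the mice and how response was scored are not stated in the labels, and no untreated tumours were analysed here. The labels do not say that each tumour came from its own animal, so a p-value here reflects the sample-to-sample spread only, part of which may be technical.

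Metalloproteinases are zinc enzymes made as inactive precursors. MMPs are secreted or anchored in the membrane and degrade collagen and other matrix proteins. ADAMs are mostly membrane proteins, several of which shed the extracellular part of growth factors, cytokines and receptors from the cell surface. ADAMTS enzymes are secreted and cut proteoglycans such as versican, procollagens and other matrix proteins, while ADAMTSL proteins share their non-catalytic domains and lack the protease domain. TIMPs bind the active site of these enzymes, each with its own range of targets. In tumours this protease RNA can come from fibroblasts, endothelial cells and leukocytes as well as from the cancer cells.

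Total counts were between 15046178 and 23917413 per tumour. Levels are given as CPM, each gene's share of the tumour's total count scaled to parts per 1e6 after TMM scaling, and differences are log2 values of non-responsive minus responsive tumours with their standard error (SE). Epithelial markers were present in every tumour (summed level of 5 genes, 938 to 4260 CPM), as were fibroblast, endothelial and macrophage markers. Non-responsive tumour 1 differed from its group in several markers. Its summed neutrophil level was 6660 CPM against 834 and 1730 CPM in non-responsive tumours 2 and 3, and its endothelial level was 309 CPM against 1110 and 889 CPM. The neutrophil sum was mostly 1 gene, Ltf, at 5844 CPM in non-responsive tumour 1. The other neutrophil markers were split. S100a8 and S100a9 were highest in that tumour (190 and 417 CPM), but Csf3r and Cxcr2 in responsive tumour 2 (121.5 and 72.5 CPM). Responsive tumour 1 had 5550 CPM of adipocyte markers against 234 to 549 CPM in the other tumours. In such bulk samples fewer cells of a type and less RNA per cell cannot be told apart.

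The comparison asked how the metalloproteinase system differed between tumours that did and did not respond to PD-1 blockade. Timp1, Timp3, the ADAMs Adam12, Adam19, Adam17 and Adam9, the ADAMTS genes Adamts4, Adamts6, Adamts7, Adamts9 and Adamts14, and the membrane protease Mmp14 stood at higher levels in every non-responsive than in any responsive tumour. Timp2, Mmp10, Mmp23 and Adamtsl5 stood at lower levels in every non-responsive tumour, though for Mmp10 and Adamtsl5 the groups nearly touched. The higher genes were 21.4% of the members tested, against 9.58% of all genes tested. The lower genes were 7.14%, against 8.08%, and so no larger a share than among all genes. The fold differences of these genes ranged from 1.49 (Adam9) to 5.19 (Timp1) in the first group and from 1.52 (Timp2) to 2.42 (Mmp10) in the second. None passed the test over all genes.

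Of the 85 members, 56 passed the filter on low counts and were tested. The edgeR quasi-likelihood test called 0 of the 56 at an adjusted p under 0.05, and 0% of the 14505 genes tested, with a smallest adjusted p of 0.350. At an unadjusted p under 0.05 there were 16 members. Of these, 12 were higher in non-responsive tumours (21.4%, against 6.79% of all genes tested) and 4 lower (7.14%, against 5.79%). The groups did not overlap for 12 members in the higher direction (21.4%, against 9.58% of all genes) and for 4 in the lower direction (7.14%, against 8.08%). The first 12 and the second 12 differ by 1 gene each, Adamts12 with overlapping groups and Adamts14 with an unadjusted p of 0.0886. Without non-responsive tumour 1, which leaves 2 tumours against 3, the groups did not overlap for 27 of the 56 members. Of these, 19 were higher (33.9%, against 22.7% of all genes in the same comparison) and 8 lower (14.3%, against 21.1%). The median log2 difference was 0.42 over the tested members and 0.01 over all genes tested. By family the medians were 0.76 for 17 ADAMTS genes, 0.40 for 13 ADAM genes, 0.10 for 18 MMP genes and -0.12 for 5 ADAMTSL genes.

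DESeq2, run as an alternative, called 10 of the 58 members to which it gave an adjusted p. All 10 were higher in non-responsive tumours (17.2%, against 1.44% of all genes). It called 0 members lower, against 1.53% of all genes. The 10 were Adam12, Adam17, Adam19, Adamts4, Adamts6, Adamts7, Adamts9, Adamts12, Timp1 and Timp3. These calls depended on single tumours, as did those over all genes (447 with all tumours). Without non-responsive tumours 1, 2 and 3 in turn DESeq2 called 13, 7 and 2 members, among 1964, 427 and 169 genes. Without responsive tumours 1, 2 and 3 it called 8, 4 and 3 members, among 438, 293 and 190 genes. Timp3 was called in each of the 6 fits that left out a tumour, Adam12 and Adamts4 in all but the fit without non-responsive tumour 3.

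**Figure D1:**
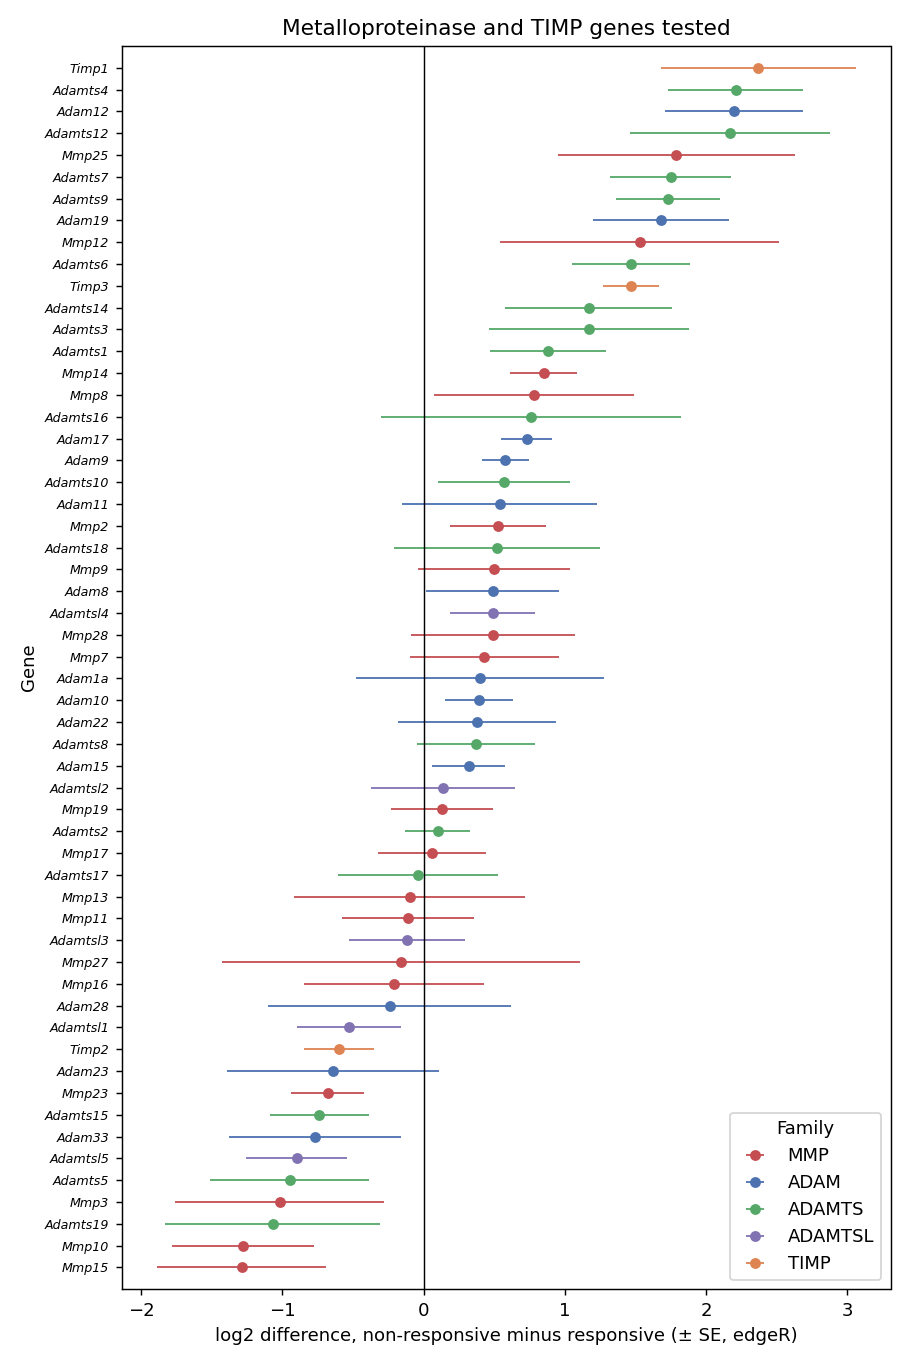
Each point is the log2 difference (non-responsive minus responsive, edgeR, with its standard error as a bar) of 1 of the 56 tested members, coloured by family. Timp1 at 2.37, Adamts4 at 2.21, Adam12 at 2.20 and Adamts12 at 2.17 lie at the top, and Mmp10 at -1.28 and Mmp15 at -1.29 at the bottom.

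The inhibitors differed from each other in direction. Timp3 (chromosome 10, 86300372 to 86349506), which stays bound to the matrix and inhibits ADAM17 and aggrecan-cleaving ADAMTS enzymes as well as MMPs, was at 503, 468 and 476 CPM in non-responsive tumours 1, 2 and 3. It was at 168, 161 and 193 CPM in responsive tumours 1, 2 and 3. The 3 non-responsive values lay close together and far above all responsive ones, with means of 482 ± 18.3 and 174 ± 17.0 CPM (SD, n = 3 per group). The difference was 1.47 ± 0.20, a 2.77-fold higher level, with an edgeR adjusted p of 0.350 and a DESeq2 adjusted p of 1.67e-09. When each tumour was left out in turn the difference stayed between 1.41 and 1.55.

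Timp1 (chromosome X, 20870166 to 20874735), a secreted inhibitor of most MMPs that is induced by inflammatory cytokines, was at 347, 64.7 and 87.0 CPM in non-responsive tumours 1, 2 and 3. In responsive tumours 1, 2 and 3 it was at 48.4, 25.8 and 21.8 CPM. Non-responsive tumour 1 stood far above all other tumours. The lowest non-responsive value (64.7 CPM) lay above the highest responsive one (48.4 CPM). The log2 difference was 2.37 ± 0.69 with all tumours and 1.24 without non-responsive tumour 1. That tumour also had the highest summed level of neutrophil markers (6660 CPM, of which 5844 CPM was Ltf). Its basal and squamous epithelial markers were highest as well (24200 against 4350 to 12200 CPM in the others). The part of these cells in the Timp1 level was not tested.

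Timp2 (chromosome 11, 118301069 to 118355740), which inhibits MMPs and also bridges pro-MMP2 to MMP14 during its activation, ran the other way. It was at 235, 357 and 224 CPM in non-responsive tumours 1, 2 and 3, and at 414, 418 and 407 CPM in responsive tumours 1, 2 and 3. The responsive values were nearly equal and the non-responsive values all lower, a difference of -0.60 ± 0.25 (edgeR unadjusted p = 0.0470, adjusted p = 0.392). Timp4, an inhibitor of restricted tissue distribution, was under the filter, with 147 counts in responsive tumour 1 and 5 to 15 counts in the other 5 tumours. Responsive tumour 1 was also the tumour with 5550 CPM of adipocyte markers, and the part of these cells in the Timp4 counts was not tested.

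Per length, the make-up of the TIMP pool differed between the groups. In deposited FPKM, a unit scaled for gene length and depth, Timp2 made up 57.4, 65.3 and 63.1% of summed TIMP RNA in responsive tumours 1, 2 and 3, but 13.4, 35.7 and 23.2% in non-responsive tumours 1, 2 and 3. Timp1 made up 68.5, 27.6 and 38.5% in non-responsive and 25.5, 16.2 and 14.1% in responsive tumours. Timp2 was thus the most abundant TIMP in each responsive tumour and in no non-responsive one. In non-responsive tumour 2, however, it was nearly level with Timp3 (35.7 against 36.5%). Summed TIMP FPKM, without TMM scaling, was 517, 308 and 285 in non-responsive and 211, 176 and 182 in responsive tumours, without overlap. Timp1, Timp3 and Timp4 each lie inside an intron-bearing synapsin gene on the opposite strand (Syn1, Syn3 and Syn2). Over the 6 tumours Syn1 had 150 counts against 10222 for Timp1 and Syn3 had 73 against 36779 for Timp3, while Syn2 had 227 against 187 for Timp4. Reads counted without strand would thus weigh most on Timp4.

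**Figure D2:**
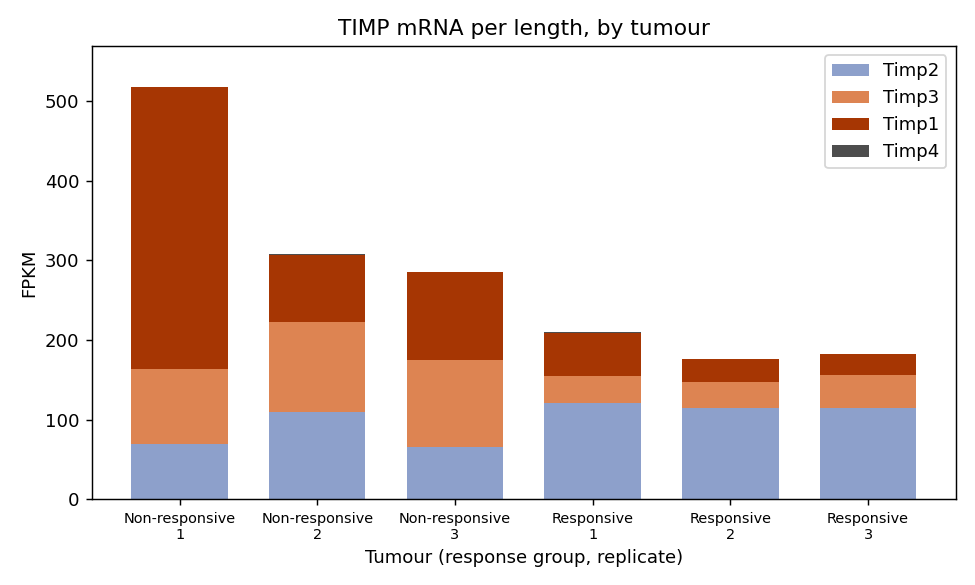
Stacked bars give deposited FPKM of the TIMP genes in each of the 6 tumours, labelled by response group and replicate. Timp2 is the largest segment in the responsive tumours, and Timp1 reaches 354 FPKM in non-responsive tumour 1.

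Among the ADAMs, Adam12 and Adam19 differed most. Adam12 (chromosome 7, 133883199 to 134232146), a sheddase known from stromal and muscle precursor cells, was at 76.3, 60.0 and 80.9 CPM in non-responsive tumours 1, 2 and 3. It was at 26.2, 14.9 and 6.26 CPM in responsive tumours 1, 2 and 3. Every non-responsive value lay well above the highest responsive one, and the log2 difference was 2.20 ± 0.49 (edgeR adjusted p = 0.350, DESeq2 adjusted p = 0.00322). Adam19 (chromosome 11, 46055992 to 46147343), a related protease that processes neuregulin, was at 23.7, 82.7 and 58.3 CPM in non-responsive tumours and at 18.3, 22.0 and 11.3 CPM in responsive tumours. Here non-responsive tumour 1 stood only just above the responsive range, and the difference was 1.68 ± 0.48 (DESeq2 adjusted p = 0.0341).

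The widely expressed sheddases differed by less, with little spread within groups for Adam17 and Adam9. Adam17 (chromosome 12, 21323509 to 21373632), which releases TNF and EGF receptor ligands, was at 80.2, 99.97 and 97.5 CPM in non-responsive tumours 1, 2 and 3 and at 49.9, 58.5 and 59.1 CPM in responsive tumours 1, 2 and 3. The groups lay well apart, with a difference of 0.73 ± 0.18 (edgeR adjusted p = 0.350, DESeq2 adjusted p = 0.0359). Adam9 (chromosome 8, 24949611 to 25016927), another membrane sheddase, was at 125 ± 10.6 against 83.8 ± 5.97 CPM, a difference of 0.58 ± 0.17 without overlap. Adam10 (chromosome 9, 70678997 to 70780229), the main sheddase of Notch receptors, had the highest FPKM of the ADAMs (mean 55.7). Its CPM values overlapped between the groups, at 248, 306 and 291 against 165, 221 and 261, a difference of 0.39 ± 0.24.

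Other ADAMs varied between tumours more than between groups. Adam8, a protease of leukocytes, was at 72.5 to 178 CPM in non-responsive and 43.6 to 131 CPM in responsive tumours (0.49 ± 0.47, and 0.10 without non-responsive tumour 3). Adam15 differed by 0.32 ± 0.26 with overlapping groups. Adam28, a protease first described in lymphocytes, was at 59.5, 9.91 and 5.88 CPM in non-responsive tumours 1, 2 and 3 and at 13.0, 37.8 and 37.9 CPM in responsive tumours 1, 2 and 3. Non-responsive tumour 1 thus had the highest Adam28 level of all, and the difference moved from -0.24 to -1.91 without it and to 0.25 without non-responsive tumour 3. Adam23, which lacks protease activity and acts in cell adhesion, ranged from 8.57 to 65.7 CPM with overlap (-0.64 ± 0.75, and -0.06 without responsive tumour 3), as did Adam33 from 1.02 to 4.20 CPM (-0.77 ± 0.61). The ADAM family also held most of the silent members. Of 34 genes, 21 were under the filter and 13 had no count in any tumour, which at this depth allows up to 0.125 to 0.199 CPM per tumour. These include 8 genes in 2 groups of neighbours on chromosome 8, Adam24, Adam25, Adam20 and Adam39, and Adam26b, Adam26a, Adam34l and Adam34. Many ADAMs of this kind are known from the testis. Of 8 male germ cell markers, 6 had no count in any tumour, which in female mice carries no information on these ADAMs. The other untested members were 5 MMP genes, 2 ADAMTS genes and Timp4, and no untested member but Timp4 exceeded 0.880 CPM in any tumour.

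In the ADAMTS family 13 of 17 tested genes lay above 0 and 5 were at an unadjusted p under 0.05, all of them higher. In the ADAM family the counts were 10 of 13 and 4, again all higher. Over all genes tested, 51.0% lay above 0 and 6.79% were higher at that p. Adamts4 (chromosome 1, 171250421 to 171260637), an aggrecanase that also cuts versican, was at 14.8, 40.2 and 45.1 CPM in non-responsive tumours 1, 2 and 3 and at 10.3, 6.28 and 5.07 CPM in responsive tumours 1, 2 and 3. The log2 difference was 2.21 ± 0.48 (edgeR adjusted p = 0.350, DESeq2 adjusted p = 0.00256). Adamts9 (chromosome 6, 92772699 to 92943492), a versicanase expressed in vessels, was at 22.9, 52.9 and 50.2 against 15.7, 12.8 and 9.56 CPM, a difference of 1.73 ± 0.37 (DESeq2 adjusted p = 0.00500). In both genes non-responsive tumour 1 was the lowest of its group and nearest to the responsive tumours.

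Other proteoglycan-cleaving members had overlapping groups. Adamts1, another versicanase, was at 44.1, 66.3 and 125.5 CPM in non-responsive and 58.0, 33.8 and 35.9 CPM in responsive tumours, with overlap (0.88 ± 0.41, and 0.36 without non-responsive tumour 3). Adamts5, the second major aggrecanase and the neighbour of Adamts1 on chromosome 16, was at 15.97, 21.8 and 16.2 CPM in non-responsive and 67.8, 22.6 and 13.7 CPM in responsive tumours. Its difference of -0.95 ± 0.56 rested on responsive tumour 1 and was -0.01 without it. Adamts15 was likewise highest in responsive tumour 1, at 34.5 CPM against 12.1 to 18.5 CPM in the other 5 tumours. Its difference was -0.74 ± 0.35, and -0.31 without that tumour. Responsive tumour 1 was the adipocyte-rich tumour (5550 CPM of markers), and the part of those cells in the Adamts5 and Adamts15 levels was not tested.

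The pair Adamts7 and Adamts12, which cut cartilage oligomeric matrix protein, both had higher means in non-responsive tumours. Adamts7 (chromosome 9, 90163069 to 90208071) was at 5.63, 13.4 and 14.8 CPM in non-responsive tumours 1, 2 and 3 and at 3.89, 3.05 and 3.13 CPM in responsive tumours 1, 2 and 3, a difference of 1.75 ± 0.43. Adamts12 (chromosome 15, 11064790 to 11349231) was at 13.8, 47.2 and 85.2 against 17.2, 10.6 and 4.78 CPM, a difference of 2.17 ± 0.71. The groups were separate for Adamts7, while non-responsive tumour 1 lay inside the responsive range for Adamts12. Adamts6 (chromosome 13, 104287835 to 104496695), which acts on fibrillin microfibrils, was at 5.70, 15.8 and 11.5 against 3.62, 3.81 and 4.49 CPM (1.47 ± 0.42). DESeq2 adjusted p-values were 0.0126 for Adamts7, 0.0470 for Adamts12 and 0.0405 for Adamts6.

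The procollagen N-proteinases, which trim fibrillar procollagens, were not called by either tool. Adamts2, the most abundant of them, was at 74.3 ± 11.2 against 69.2 ± 15.95 CPM (0.10 ± 0.23). Adamts14 was low, at 1.59, 2.11 and 2.45 against 1.49, 0.825 and 0.412 CPM, with groups that did not overlap (1.17 ± 0.59), and Adamts3 differed by 1.17 ± 0.71 with overlap (0.40 without non-responsive tumour 1). Adamts17 and Adamts19 stayed at or under 1.65 CPM in every tumour.

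Among the non-responsive tumours, Adam19, Adamts4, Adamts6, Adamts7, Adamts9 and Adamts12 were each lowest in tumour 1. So were Adam17, Adam9, Adamts14 and Mmp14, while Adam12, Timp1 and Timp3 were lowest in tumour 2. The share of all genes lowest in tumour 1 of that group is not given here. Summed endothelial markers were at 309, 1110 and 889 CPM in non-responsive tumours 1, 2 and 3, and so lowest in tumour 1 of that group. They were at 265 to 416 CPM in responsive tumours. All 8 endothelial markers had higher means in non-responsive tumours, 4 at an unadjusted p under 0.05. Fibroblast markers were at 5690, 7320 and 6690 CPM in non-responsive and 5870, 5300 and 4620 CPM in responsive tumours, with 8 of 10 genes above 0. The part of these cells in the protease levels was not tested. Reads from a neighbour on the other strand may enter Adamts7, which overlaps Tbc1d2b, because no label states whether the counting used strand.

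**Figure D3:**
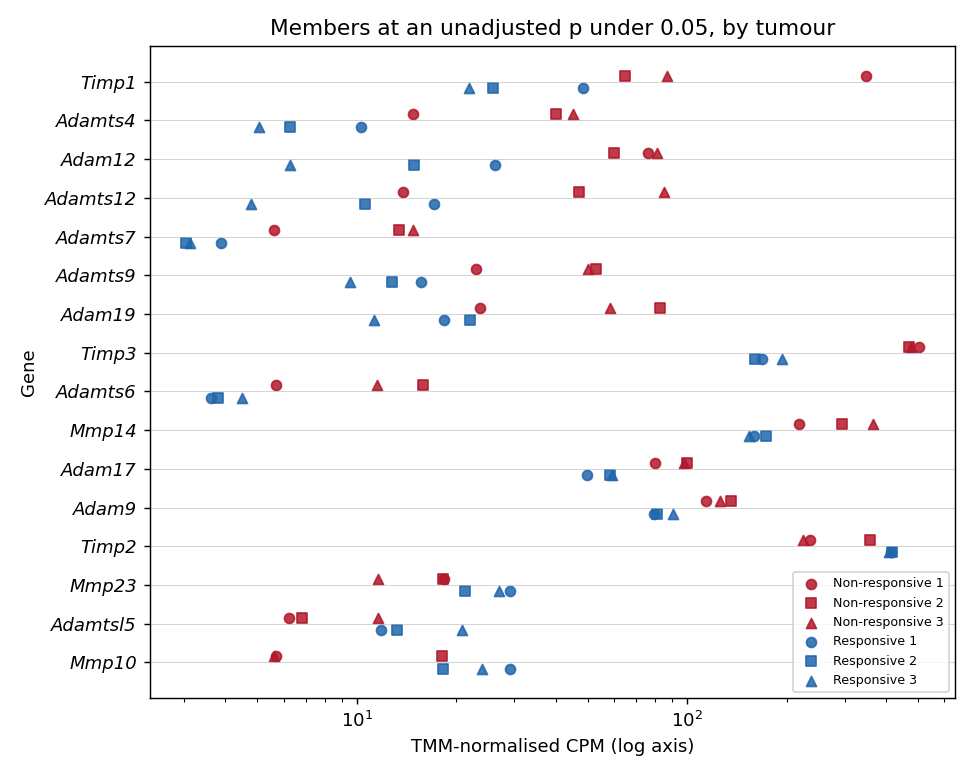
TMM-normalised CPM on a log axis for the 16 members at an unadjusted p under 0.05, with 1 marker per tumour, non-responsive in red above and responsive in blue below each line. The Timp3 and Adam17 values of the groups are tight and separate, non-responsive tumour 1 is far to the right for Timp1 and lies within the responsive range for Adamts12, and the 4 genes at the bottom run the other way.

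The ADAMTSL genes, whose products bind fibrillin microfibrils or act on matrix without proteolysis, had overlapping groups in 4 of 5 cases. Adamtsl5 (chromosome 10, 80339110 to 80348412) was at 6.23, 6.80 and 11.6 CPM in non-responsive tumours 1, 2 and 3 and at 11.8, 13.2 and 20.8 CPM in responsive tumours 1, 2 and 3. The groups nearly touched, at 11.6 and 11.8 CPM, and the difference was -0.90 ± 0.36 (edgeR unadjusted p = 0.0410, adjusted p = 0.384). Adamtsl1 differed by -0.53 ± 0.37, Adamtsl2 by 0.14 ± 0.51, Adamtsl3 by -0.12 ± 0.41 and Adamtsl4 by 0.49 ± 0.30, all with overlapping groups.

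MMPs as a family were split, with 10 of 18 tested genes above 0 and 8 below. Among the membrane-type MMPs, Mmp14 (chromosome 14, 54431612 to 54445364), a collagenase that also activates pro-MMP2, was at 218, 294 and 366 CPM in non-responsive tumours 1, 2 and 3. In responsive tumours 1, 2 and 3 it was at 160, 174 and 154 CPM. Every non-responsive value was higher, and the difference was 0.85 ± 0.24 (edgeR adjusted p = 0.350, DESeq2 adjusted p = 0.0623). Mmp2, the gelatinase that MMP14 activates, was at 109.5, 253 and 267 against 161, 144 and 132 CPM, with non-responsive tumour 1 below all responsive tumours (0.53 ± 0.34). Mmp15, a membrane-type MMP of epithelia, had its highest levels in responsive tumours 3 and 2, at 221 and 119 CPM, against 43.6 CPM in responsive tumour 1 and 27.8, 58.2 and 70.9 CPM in non-responsive tumours. Its difference of -1.29 ± 0.60 was -0.63 without responsive tumour 3. Luminal urothelial markers were also highest in responsive tumours 3 and 2 (2500 and 1170 CPM, against 251 to 933 CPM in the others), and their part in the Mmp15 level was not tested.

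Leukocyte-type MMPs followed single tumours. Mmp12 (chromosome 9, 7344381 to 7369499), the macrophage elastase, had the highest mean FPKM of all members (159), yet was at 99.99, 666 and 225 CPM in non-responsive tumours 1, 2 and 3 and at 160, 170 and 12.5 CPM in responsive tumours 1, 2 and 3. The groups overlapped, and the difference of 1.53 ± 0.99 was 0.52 without non-responsive tumour 2. Macrophage markers took the same extremes, with 1540 CPM in non-responsive tumour 2 and 612 CPM in responsive tumour 3, a much narrower range than that of Mmp12. Mmp9, the gelatinase of neutrophils and macrophages, was at 35.8, 121 and 32.4 against 35.1, 60.9 and 37.8 CPM, and its difference turned from 0.50 to -0.37 without non-responsive tumour 2. Mmp25, a membrane-anchored MMP of leukocytes, was at 4.44, 27.7 and 4.72 against 2.12, 6.16 and 2.43 CPM (1.79 ± 0.84, and 0.39 without non-responsive tumour 2). Non-responsive tumour 2, highest for all 3 genes, also had the highest summed T cell level (135 CPM, against 20.4 to 31.7 CPM in the others) and B cell level (3330 CPM, against 179 to 991 CPM). The part of these cells was not tested. The neutrophil collagenase gene Mmp8 ranged from 0.701 to 7.95 CPM with overlap.

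Stromelysin genes had lower means in non-responsive tumours, and only Mmp10 among them had separate groups. Mmp10 (chromosome 9, 7502352 to 7510240), a stromelysin of epithelia, was at 5.70, 18.1 and 5.60 CPM in non-responsive tumours 1, 2 and 3 and at 29.1, 18.2 and 24.0 CPM in responsive tumours 1, 2 and 3. Non-responsive tumour 2 almost met responsive tumour 2, and the difference was -1.28 ± 0.50 (edgeR unadjusted p = 0.0382, adjusted p = 0.380). Mmp3, the stromelysin of fibroblasts, was at 66.7 CPM in responsive tumour 1 and 8.61 to 18.4 CPM elsewhere. Its difference of -1.02 ± 0.74 was 0.42 without responsive tumour 1. Mmp13, a collagenase of stroma and macrophages, spanned 15.2 to 70.8 CPM in non-responsive and 7.54 to 74.1 CPM in responsive tumours (-0.10 ± 0.82). Mmp11 (-0.11 ± 0.47) and the epithelial matrilysin gene Mmp7 (0.43 ± 0.53) overlapped as well, and the sign turned without non-responsive tumour 1 for Mmp11 (0.21) and without non-responsive tumour 2 for Mmp7 (-0.10). That of Mmp13 turned without responsive tumour 1 (0.65). Mmp23 (chromosome 4, 155650655 to 155653384), an atypical membrane-anchored MMP, was at 18.4, 18.3 and 11.6 against 29.1, 21.2 and 26.9 CPM, with no overlap and a difference of -0.68 ± 0.26.

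Per length, summed MMP RNA was 227, 904 and 507 FPKM in non-responsive tumours 1, 2 and 3 and 352, 327 and 234 FPKM in responsive tumours 1, 2 and 3. Mmp12 alone made up 56.9% of it in non-responsive tumour 2 and 3.53% in responsive tumour 3. The ratio of summed TIMP to summed MMP FPKM was 2.27, 0.341 and 0.563 in non-responsive and 0.598, 0.539 and 0.778 in responsive tumours. The groups overlapped, and non-responsive tumour 1 stood apart. It had both the highest summed TIMP FPKM (517, of which 68.5% was Timp1) and the lowest summed MMP FPKM (227). With Mmp12 left out the ratio was 0.790 to 0.841 in 5 tumours and 3.05 in non-responsive tumour 1.

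A shared feature of 10 MMP genes was their position. Mmp13, Mmp12, Mmp1b, Mmp3, Mmp1a, Mmp10, Mmp8, Mmp27, Mmp20 and Mmp7 lie in 1 cluster on chromosome 9 (7272514 to 7699585, mm10), and 7 of them were tested. Many MMP promoters are known to carry a binding site for AP-1, the FOS and JUN transcription factor, close to a TATA box. In the RefSeq promoters (GRCm38.p6), the 250 bases before each start were searched on both strands. The letters searched were TGANTCA for AP-1. For the box bound by the general transcription machinery they were TATAAA. For ETS factors, which often act with AP-1 at these genes, they were CCGGAAGT. Of 85 members, 54 had an entry. AP-1 letters were present in 8 of 12 promoters of the cluster (66.7%, 1 each in 8 of its 10 genes), in 4 of 47 promoters of other members (8.51%) and in 6.75% of all 32851 promoters. All 8 matches of the cluster lay within 100 bases of the start, as in 2.73% of all promoters. TATA letters were present in 7 of the 12 (58.3%), against 12.8% in other members and 12.4% in all promoters, and ETS letters in none of the member promoters (2.88% of all). A match is a description of these letters and no evidence of binding.

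The windows below show the last 100 bases before the start in the tested genes of the cluster whose promoter held AP-1 letters, with Mmp8 as a gene without a match. Capitals mark AP-1 and TATA letters, and each window is 5′ to 3′ on the gene's strand. Mmp12 and Mmp7 have 2 annotated starts each, and the one with a match is shown.
Mmp13, chr9:7272414-7272513, plus strand: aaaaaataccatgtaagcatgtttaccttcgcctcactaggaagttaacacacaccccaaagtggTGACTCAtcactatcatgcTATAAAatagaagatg
Mmp12, chr9:7347274-7347373, plus strand: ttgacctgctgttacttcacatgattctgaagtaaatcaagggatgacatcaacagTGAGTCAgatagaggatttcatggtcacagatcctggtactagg
Mmp3, chr9:7445722-7445821, plus strand: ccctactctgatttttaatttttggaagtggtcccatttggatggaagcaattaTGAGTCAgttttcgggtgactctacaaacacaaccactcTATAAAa
Mmp10, chr9:7502242-7502341, plus strand: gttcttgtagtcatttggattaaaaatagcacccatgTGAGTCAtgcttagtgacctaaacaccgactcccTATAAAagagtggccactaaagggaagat
Mmp7, chr9:7691990-7692089, plus strand: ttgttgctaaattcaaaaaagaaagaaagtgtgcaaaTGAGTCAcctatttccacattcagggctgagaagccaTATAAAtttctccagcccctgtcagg
Mmp8, chr9:7558329-7558428, plus strand: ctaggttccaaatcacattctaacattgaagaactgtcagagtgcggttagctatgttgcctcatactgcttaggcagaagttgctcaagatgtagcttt

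Counted from the start, the AP-1 letters begin at -35 in Mmp13, -44 in Mmp12, -46 in Mmp3 and -63 in both Mmp10 and Mmp7. In spite of this shared feature the genes did not have a common pattern across tumours. The highest level was in responsive tumour 1 for Mmp13, Mmp3 and Mmp10, and in non-responsive tumour 2 for Mmp12 and Mmp7. Of the searched members with values separating the groups, Timp1, Timp2, Timp3, Adam17, Adamts9, Adamts14, Adamtsl5, Mmp14 and Mmp23 had neither AP-1 nor TATA letters in their windows. Adam19 had AP-1 letters before 1 of its 3 annotated starts, at -131. Among 15 AP-1, ETS and related transcription factor genes, 1 was at an unadjusted p under 0.05 in the higher direction (Runx2, 1.40 ± 0.55) and 2 in the lower (Jund, -0.60 ± 0.19, and Elf3, -0.90 ± 0.37), against 6.79% and 5.79% of all genes. Fos, Fosl1 and Jun differed by -0.76, -0.83 and -0.23, with overlapping groups.

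**Figure D4:**
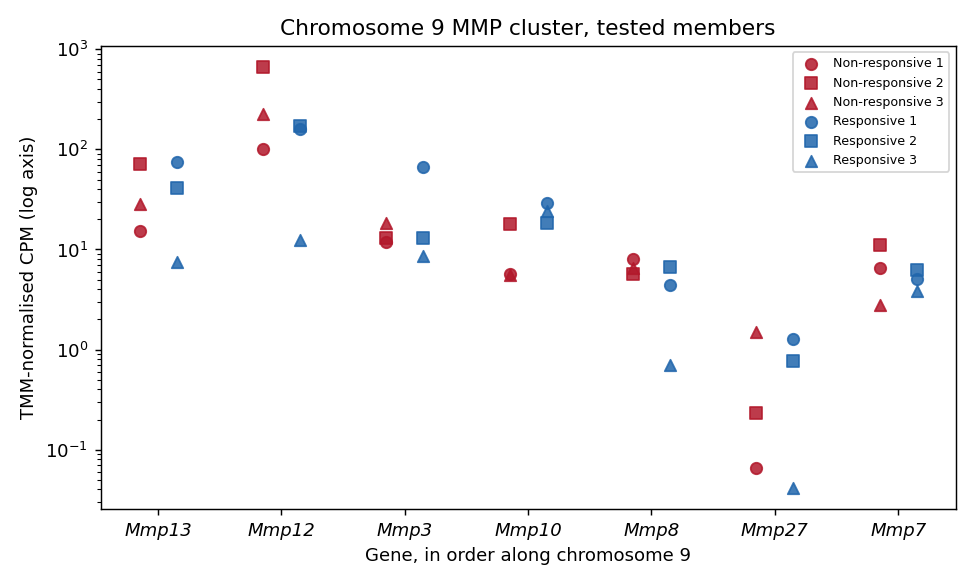
TMM-normalised CPM on a log axis for the 7 tested MMP genes of the chromosome 9 cluster, with 1 marker per tumour (non-responsive red, responsive blue). The groups overlap for 6 genes, and for Mmp10 the lowest responsive value of 18.2 CPM lies next to the highest non-responsive one of 18.1 CPM.

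Across the 56 tested members, non-responsive tumour 2 held the highest value for 21 genes (37.5%, against 23.4% of all genes tested) and the lowest value for none (21.4% of all genes). Responsive tumour 3 held the lowest value for 23 members (17.7% of all genes). Non-responsive tumours 1 and 3 held the highest value for 7 and 13 members (12.5 and 23.2%, against 13.9 and 19.3% of all genes). They held the lowest for 10 and 14 members (14.9 and 19.4% of all genes).

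Genes that act with the metalloproteinases were taken from lists of known partners, and their counts stand beside the 6.79% of all genes that were higher and the 5.79% that were lower at an unadjusted p under 0.05. A single gene of a list past that p is given as a value of that gene, not as a result about the list. Of 12 tested activators of their precursors, 0 were higher and 3 lower at that p. These were the plasminogen activator gene Plat (94.1 against 211 CPM, -1.16 ± 0.20), the epithelial membrane protease gene Prss8 (-1.83 ± 0.22) and the mast cell chymase gene Cma1 (-2.29 ± 0.60). Cma1 is itself a marker of mast cells, of whose 6 tested markers 5 lay below 0, with summed levels of 21.8, 66.9 and 31.9 CPM in non-responsive and 135, 71.2 and 35.1 CPM in responsive tumours. Prss8 is made by epithelia, and pan-epithelial markers were at 2130, 938 and 1470 CPM in non-responsive and 1470, 3500 and 4260 CPM in responsive tumours. The part of these cells was not tested. Furin, the convertase that activates MMP14 and ADAMs, differed by 0.38 (unadjusted p = 0.156). Of 5 tested inhibitors other than TIMPs, 1 was lower, Spock2 (7.504 against 28.3 CPM, -1.92 ± 0.73), and the membrane inhibitor gene Reck differed by -0.37 (unadjusted p = 0.410).

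Of 9 tested partners of ADAM10 and ADAM17, 7 lay below 0. At an unadjusted p under 0.05, 0 were higher and 1 lower (against 5.79% of all genes), the tetraspanin gene Tspan17 (-0.81 ± 0.27). The iRhom genes Rhbdf2 and Rhbdf1, needed for ADAM17 to mature, differed by 0.46 (unadjusted p = 0.0750) and 0.01. Among 19 tested substrates of ADAM sheddases, 4 were higher and 1 lower, against 6.79% and 5.79% of all genes. The higher ones were Cx3cl1 (1.00 ± 0.30), App (0.68 ± 0.22), Axl (0.64 ± 0.25) and Mertk (1.23 ± 0.35). The lower one was Ereg, an EGF receptor ligand released by ADAM17 (23.0 against 63.9 CPM, -1.47 ± 0.31). Among relatives of the metalloproteinases and procollagen-processing partners, Pappa, a protease of insulin-like growth factor binding proteins, was higher (18.6 against 5.64 CPM, 1.72 ± 0.36). The procollagen C-proteinase enhancers Pcolce (-0.54 ± 0.17) and Pcolce2 (-1.82 ± 0.54) were lower.

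Of 16 tested matrix substrates, 8 were higher and 1 lower at an unadjusted p under 0.05 (6.79% and 5.79% of all genes), and 14 lay above 0 (51.0% of all genes). Col1a1, Col1a2, Col3a1 and Dcn of this list were also fibroblast markers here, and Vwf was an endothelial marker. Vcan, the versican that ADAMTS4 and ADAMTS9 cut, was at 112, 116 and 128 against 57.5, 52.7 and 58.5 CPM (1.08 ± 0.17). The basement membrane collagen genes Col4a1 and Col4a2 differed by 1.63 ± 0.39 and 1.67 ± 0.38, and the collagen I genes Col1a1 and Col1a2 by 1.06 ± 0.26 and 1.02 ± 0.26. Fibronectin (Fn1) differed by 1.28 ± 0.39. The lower one was Dcn, encoding the proteoglycan decorin, at 867.8 ± 405.9 against 1835 ± 168 CPM (-1.08 ± 0.40). DESeq2 called 8 of the 16 higher and 0 lower, against 1.44% and 1.53% of all genes. Of 9 tested receptors bound by ADAM and ADAMTSL proteins, 3 were higher and 0 lower at an unadjusted p under 0.05, and 4 lay below 0. These 3 were the integrin genes Itgb3 (49.5 against 19.7 CPM, 1.33 ± 0.32), Itgb1 (0.91 ± 0.26) and Itga9 (1.07 ± 0.31). Of 13 tested inducers and docking partners of MMPs, 2 were higher and 0 lower, and 5 lay below 0. These 2 were Itgb3 again and Ccn2 (1.70 ± 0.55). Over all genes, 6.79% were higher and 5.79% lower at that p. No gene of these lists passed edgeR over all genes.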

How the data were processed

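Per the file headers the authors deposited an estimated count (expected count) and an FPKM value per gene for each of 6 tumours. Per the submitters' processing notes the build was mm10; no label names an aligner, a counter, a strand setting or an annotation. Per the labels' protocols RNA was extracted with TRIZOL and libraries made with an Illumina TruSeq kit. The counts were rounded, since 8.19 to 9.99% of values per tumour were not whole. The deposited FPKM values were used to compare levels between genes, and for the sums, shares and ratios of TIMP and MMP RNA in each tumour. No TMM scaling was applied to them. Depth was 15046178 to 23917413 counts, so that 3 counts, the limit a count of 0 allows, equal 0.125 to 0.199 CPM (counting error only). The 30 rows without a symbol were kept as identifiers.

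The test was that of edgeR 4.0.16 under R 4.3.3 (TMM, default filter, robust quasi-likelihood test, Benjamini-Hochberg over 14505 genes, threshold 5%), and SEs were taken from its F statistic. SDs are over 3 tumours. Alternatives were DESeq2 1.42.0, its size factors in edgeR, limma-voom (limma 3.58.1), no filter, at least 5 CPM in 3 tumours, a block for the replicate number, and fits without each tumour. DESeq2 without each tumour and the filters for single genes were added after seeing the data. Simulated counts with known changes were used to test the fits. Members, gene lists and tests were chosen with earlier results of these data known. Named members are all TIMPs, a fixed set of well-known members, up to 4 of smallest p per family and direction, DESeq2 calls and the 2 of highest FPKM per family; Adamts3, Mmp8, the silent ADAM genes and list genes at an unadjusted p of 0.05 or more were named after their values were seen. Coordinates are from GENCODE mouse release 21 (mm10) and promoters from RefSeq.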

Additional observations from a re-analysis of the deposited data

How the results depend on the processing

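The count of genes past the threshold was 0 in edgeR under each other scaling, each filter, the replicate block, limma-voom and without each tumour, both for all genes and for the members. The DESeq2 test gave 447 genes and 10 members. Leaving out a tumour, DESeq2 gave 2 to 13 members among 169 to 1964 genes. The members with separate groups numbered 19 to 27 (16 with all tumours), with fewer tumours to separate. In these comparisons the higher ones were 23.2 to 33.9% of members, against 12.9 to 22.7% of all genes. The lower ones were 7.14 to 14.3%, against 10.9 to 21.1%. Members at an unadjusted p under 0.05 numbered 13 to 19 over all alternatives, and 15 with the replicate block (16 without). In the main edgeR fit 6.79% of all genes were higher and 5.79% lower at that p. No such share is given here for the alternatives. The deviations of same-numbered tumours had correlations of -0.11, -0.087 and -0.024. With so few tumours per group, these values cannot decide whether the number pairs the tumours. The labels do not say what the number stands for. The median over members was 0.20 to 0.51 over all alternatives, 0.29 with the block.

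Of 42 named members with a test, 32 kept their sign under each alternative run for single genes and 10 did not. Leaving out each tumour gave log2 ranges of -1.91 to 0.25 for Adam28, -0.56 to 0.19 for Adamts17, -0.07 to 0.26 for Adamts2, -0.18 to 0.51 for Adamtsl2, -0.60 to 0.07 for Adamtsl3, -0.60 to 0.21 for Mmp11, -0.88 to 0.65 for Mmp13, -1.47 to 0.42 for Mmp3, -0.10 to 0.80 for Mmp7 and -0.37 to 0.80 for Mmp9. Mmp13 was at 0.24 with the replicate block. The cause was not tested. The 29 members under the filter have no comparison in the main edgeR test, while the fit without a filter tested 72 members. At 3 tumours a group, the edgeR test called no gene although several members were separated without overlap.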
